A study of Mus musculus with 2 samples.

Results

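The endocannabinoid system of the mouse hippocampus was described through 9 genes chosen by name: the receptor gene Cnr1, the synthesis genes Dagla, Daglb and Napepld, the degradation genes Mgll, Faah, Abhd6 and Abhd12, and Cnrip1, whose product binds the receptor. All 9 were found, of 55536 annotated genes and 22015 nuclear protein-coding genes in the tables. Total RNA came from tissue labelled layer of hippocampus, of female B6CASTF1/J mice aged 2 months. These mice are first-generation hybrids of C57BL/6J and CAST/EiJ. The RNA was sequenced in 2 libraries from 300 ng each, with ERCC spike-in RNAs added. The labels call the libraries biological replicates 1 and 2 of the same tissue and give them 1 shared donor record. Whether they come from different animals is not stated, and their spread may in part be technical. There is 1 group and no treatment or genotype contrast, so the report gives levels, ratios within a library and ratios between the libraries, without p-values.

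Endocannabinoids are lipid messengers that travel backwards across synapses. The postsynaptic cell cuts them from membrane lipids on demand, they bind the presynaptic receptor CB1, and CB1 lowers transmitter release through Gi and Go proteins. The main pair of messengers, 2-arachidonoylglycerol and anandamide, are made and broken down by separate enzymes, and in the hippocampus CB1 is known from terminals of cholecystokinin-expressing interneurons and, at lower density, from glutamatergic terminals.

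Cnr1 codes for CB1, the target of the active compound of cannabis. Its gene, ENSMUSG00000044288.6, lies at chr4:33924593-33948831, + strand, mm10. Its level was 72.6 TPM in replicate 1 and 68.4 TPM in replicate 2, a mean of 70.5 ± 2.96 TPM (SD, n = 2). TPM is a transcript share per length, scaled to a fixed total in each library. The authors deposited 2 quantifications of each library, and values are from the first, which gives gene and transcript levels with intervals, unless the second, a transcript table alone, is named. The libraries held 8205 and 8132 expected counts of Cnr1, the most of the 9 genes. The level was higher than that of 94.5% of nuclear protein-coding genes.

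Cnrip1, whose product binds the C-terminal tail of CB1, stood at 48.3 TPM in replicate 1 and 48.0 TPM in replicate 2 (48.1 ± 0.177 TPM, SD, n = 2). The gene, ENSMUSG00000044629.5, lies at chr11:17051586-17079371, + strand. Its level was below that of Cnr1 in both libraries, with a log2 ratio of Cnrip1 over Cnr1 of -0.55 ± 0.06 (SD, n = 2), past 3 SD from 0.

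Dagla and Daglb code for the diacylglycerol lipases that make 2-arachidonoylglycerol. The alpha form is the one known to supply it at mouse synapses. Dagla (ENSMUSG00000035735.10, chr19:10245265-10304877, - strand) stood at 49.2 TPM in replicate 1 and 50.6 TPM in replicate 2 (49.9 ± 1.03 TPM, SD, n = 2). Daglb (ENSMUSG00000039206.13, chr5:143464584-143505942, + strand) stood at 11.2 TPM in replicate 1 and 12.6 TPM in replicate 2 (11.9 ± 0.962 TPM, SD, n = 2). Dagla was therefore the higher of the pair in each library, and the groups of values did not overlap. The log2 ratio of Dagla over Daglb was 2.14 in replicate 1 and 2.01 in replicate 2, a mean of 2.07 ± 0.09, or 4.21-fold, and Dagla held 80.8% ± 0.939 of the summed TPM of the pair (SD, n = 2). The last 2309 bases of Daglb, at chr5:143503634-143505942, are also exonic sequence of Rac1 on the opposite strand, a gene at 151 TPM in replicate 1 and 155 TPM in replicate 2. No label or file header states the strand setting of the counting, so the Daglb value is uncertain to the extent that Rac1 reads were counted there.

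Napepld codes for the phospholipase D that releases anandamide and other N-acylethanolamines. The gene, ENSMUSG00000044968.16, lies at chr5:21662901-21701396, - strand. It stood at 11.5 TPM in replicate 1 and 13.6 TPM in replicate 2 (12.5 ± 1.44 TPM, SD, n = 2), level with Daglb: their ranges overlapped, and these were the lowest 2 of the 9 genes. Even so, 68.2% of nuclear protein-coding genes lay below Napepld and 67.2% below Daglb. The overlap of Napepld and Daglb rests on all transcripts. With protein-coding transcripts alone, Daglb stood at 9.56 TPM in replicate 1 and 9.64 TPM in replicate 2, below Napepld, whose values stayed the same.

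The hydrolase genes were headed by Abhd12, which codes for a membrane lipase that cuts 2-arachidonoylglycerol and lysophosphatidylserine. Abhd12 (ENSMUSG00000032046.15, chr2:150832493-150904741, - strand) stood at 122 TPM in replicate 1 and 123 TPM in replicate 2 (122 ± 0.643 TPM, SD, n = 2). It was the highest of the 9 genes in both libraries and lay above 97.5% of nuclear protein-coding genes.

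Mgll codes for monoacylglycerol lipase, known from rodent brain as the main enzyme that ends 2-arachidonoylglycerol signals. Mgll (ENSMUSG00000033174.17, chr6:88724412-88828360, + strand) stood at 64.6 TPM in replicate 1 and 69.5 TPM in replicate 2 (67.0 ± 3.41 TPM, SD, n = 2). Faah codes for fatty acid amide hydrolase, the enzyme that breaks down anandamide. Faah (ENSMUSG00000034171.13, chr4:115967145-116017926, - strand) stood at 60.8 TPM in replicate 1 and 61.2 TPM in replicate 2 (61.0 ± 0.269 TPM, SD, n = 2). Abhd6, a postsynaptic hydrolase of 2-arachidonoylglycerol, was the lowest of these enzymes: the gene, ENSMUSG00000025277.14 at chr14:8002902-8056763, + strand, stood at 28.7 TPM in replicate 1 and 30.1 TPM in replicate 2 (29.4 ± 1.03 TPM, SD, n = 2). Of the summed TPM of the 4 hydrolase genes, Abhd12 held 43.7% ± 0.605, Mgll 24.0% ± 0.761, Faah 21.8% ± 0.321 and Abhd6 10.5% ± 0.166 (SD, n = 2 each). With protein-coding transcripts alone these shares were 42.7% ± 2.27, 28.8% ± 1.48, 14.6% ± 0.435 and 13.8% ± 0.356 in the same order.

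All 9 genes reached 1 TPM, and also 5 TPM, in both libraries; 58% of nuclear protein-coding genes reached 1 TPM in both. The median of those detected genes was 14.6 TPM, and 7 of the 9 lay above it. In the order of mean levels, 4 of the 8 neighbouring pairs stood apart, meaning that neither the libraries' values nor the authors' intervals overlapped. These were Abhd12 above Cnr1, Faah above Dagla, Cnrip1 above Abhd6 and Abhd6 above Napepld. The place of Faah above Dagla rests on all transcripts. With protein-coding transcripts alone, Faah stood at 31.0 TPM, below Dagla at 46.6 TPM and Cnrip1 at 42.9 TPM. With all transcripts, the pairs Cnr1 and Mgll, Mgll and Faah, Dagla and Cnrip1, and Napepld and Daglb did not stand apart. Cnr1 was the higher of the first pair in replicate 1, and Mgll was in replicate 2. Because the tissue was sequenced in bulk, fewer cells that carry a transcript and less RNA per cell cannot be told apart.

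**Figure D1:**
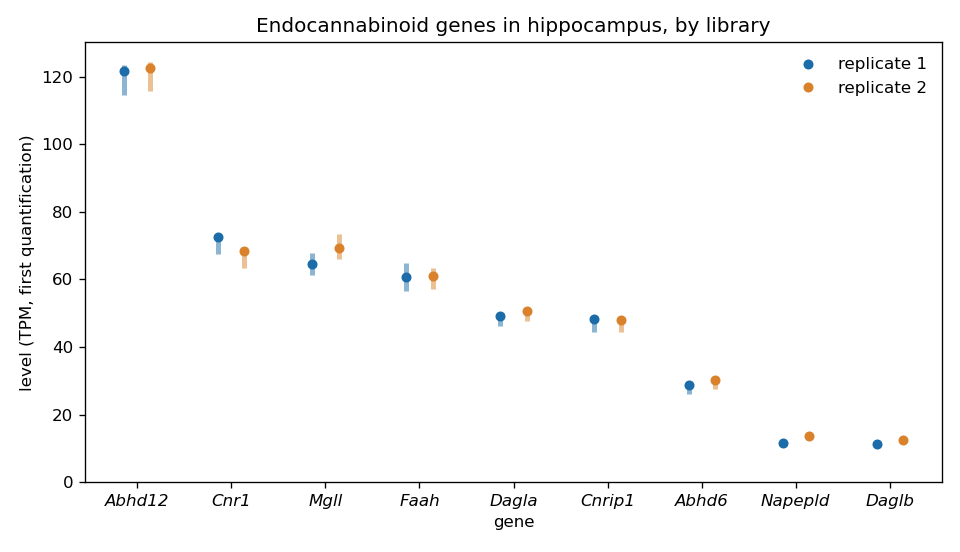
Level of each gene in TPM (linear axis from 0) for replicate 1 and replicate 2; points are library values, and bars are the authors' interval, whose level is not stated. Abhd12 lies above the others at 122 and 123 TPM, a middle group runs from Cnr1 to Cnrip1, and Napepld and Daglb lie lowest between 11.2 and 13.6 TPM.

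The ratios between roles were measured within each library, which removes scaling between libraries. For the 2-arachidonoylglycerol route, the log2 ratio of Dagla over Mgll, synthesis over breakdown, was -0.43 ± 0.04. Abhd12 lay above Mgll with a log2 ratio of 0.87 ± 0.07, or 1.82-fold, and Abhd6 lay below Mgll with a log2 ratio of -1.19 ± 0.02 (SD, n = 2 each). For the anandamide route, the log2 ratio of Napepld over Faah was -2.29 ± 0.16, so Faah RNA was 4.88-fold higher than that of Napepld. These 4 ratios were past 3 SD. Mgll over Faah, which sets the degradation enzymes of the messengers side by side, was not: its log2 ratio was 0.09 in replicate 1 and 0.18 in replicate 2, a mean of 0.14 ± 0.07 (SD, n = 2). RNA ratios say nothing of enzyme activity or of lipid levels, which were not measured.

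That pair changed when only transcripts annotated as protein-coding, partial ones included, were counted. Protein-coding transcripts of Mgll summed to 61.3 ± 3.70 TPM and those of Faah to 31.0 ± 1.21 TPM (SD, n = 2 each). The log2 ratio of Mgll over Faah was then 0.96 in replicate 1 and 1.00 in replicate 2, a mean of 0.98 ± 0.03 or 1.97-fold, past 3 SD. The same step brought Napepld over Faah to -1.31 ± 0.11 and Abhd12 over Mgll to 0.57 ± 0.15 (SD, n = 2 each), both still past 3 SD and with the direction unchanged.

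**Figure D2:**
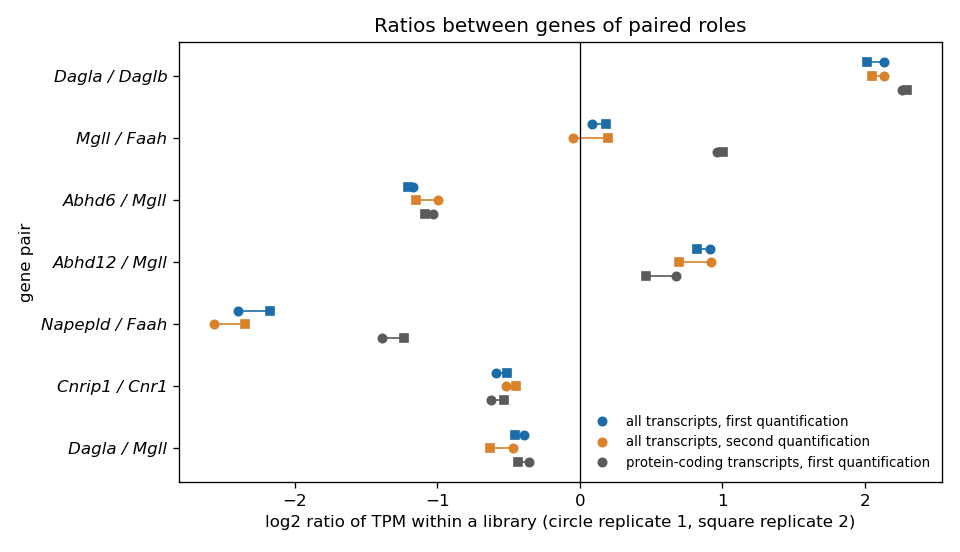
log2 ratio of TPM within a library (horizontal axis) for 7 gene pairs, with circles for replicate 1 and squares for replicate 2; colours separate all transcripts in the first and second quantification and protein-coding transcripts in the first. Mgll over Faah lies near 0 with all transcripts and at 0.96 and 1.00 with protein-coding ones, while Dagla over Daglb stays above 2 in every setting.

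Faah was the member with the lowest coding share. Its single protein-coding transcript, Faah-201, held 49.6% of Faah TPM in replicate 1 and 52.1% in replicate 2 (50.8% ± 1.77, SD, n = 2), and 12.6% of 11575 detected protein-coding genes with several transcripts had a lower coding share. The median of those genes was 84.7%. Transcripts annotated with a retained intron held 42.8% in replicate 1 and 35.1% in replicate 2, and spliced transcripts with no coding sequence 7.65% and 12.8%. Of the other transcripts 3 reached 10% in at least 1 library. Faah-203 held 19.5% in replicate 1 and 14.5% in replicate 2, Faah-206 10.9% and 8.73%, and Faah-204, which keeps no intron of Faah-201, 7.65% and 12.8%. In the second quantification Faah-201 held 44.8% ± 1.30 (SD, n = 2), so the low share appears in both.

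Faah-203 keeps intron 14 of Faah-201, of 205 bases at chr4:115998616-115998820, and Faah-206 keeps intron 11, of 698 bases at chr4:116000089-116000786. The lines below show where these transcripts run on past the coding exon (mm10, - strand, 5′ to 3′). Lower case is the last 20 coding bases of the exon that Faah-201 splices, and capitals are the first 20 bases of the kept intron, which in each begins with the usual donor letters GT.
Faah-203: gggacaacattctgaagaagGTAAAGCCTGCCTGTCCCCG
Faah-206: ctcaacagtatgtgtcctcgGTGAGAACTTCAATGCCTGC
The TPM of the whole gene includes these transcripts, and the TPM of Faah-201 does not.

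**Figure D3:**
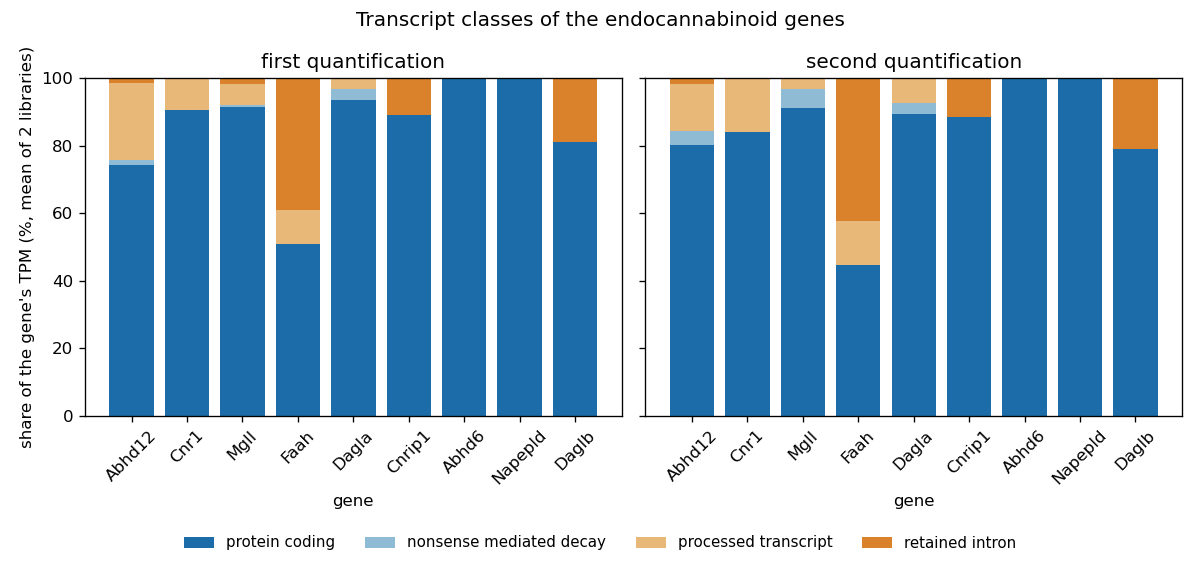
Share of each gene's TPM by annotated transcript class (stacked bars, percent, mean of 2 libraries), in the first quantification at left and the second at right. Faah has the lowest protein-coding share in both, 50.8% and 44.8%, and Abhd6 and Napepld have 100%.

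In Abhd12 the protein-coding transcript, Abhd12-201, held 77.0% of TPM in replicate 1 and 71.8% in replicate 2. Abhd12-207, a spliced transcript with no coding sequence that covers only the 3′ part of the gene, chr2:150832493-150842570, held 16.5% and 20.9%, and 7.92% and 11.2% in the second quantification. Abhd12-201 alone stood at 90.8 ± 3.99 TPM (SD, n = 2) and was still the highest coding level of the 9 genes. Daglb-201 held 85.4% of Daglb TPM in replicate 1 and 76.8% in replicate 2, while its own level was 9.56 and 9.64 TPM. The difference between the libraries in Daglb lay in its 3 retained-intron transcripts, at 1.63 TPM in replicate 1 and 2.91 TPM in replicate 2. The lowest of them had only 3.29 expected counts in replicate 1 and 10.25 in replicate 2. For each of the 3, the authors' intervals overlapped between the libraries, so this difference is uncertain. Cnrip1-201 held 84.8% ± 1.46 of Cnrip1 TPM, and the retained-intron transcript Cnrip1-203 11.0% ± 1.43 (SD, n = 2 each).

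Dagla was the least divided among genes with a transcript of another class: Dagla-201 held 93.5% ± 0.290 of its TPM (SD, n = 2). Dagla-202, annotated for nonsense-mediated decay, lacks 23 coding bases of Dagla-201 at chr19:10270988-10271010 and so leaves the reading frame. It stood at 1.56 TPM in replicate 1 and 1.79 TPM in replicate 2. The stretch is shown in capitals with 12 coding bases on each side (mm10, - strand, 5′ to 3′).
Dagla-201: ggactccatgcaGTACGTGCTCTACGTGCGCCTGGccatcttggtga

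The main coding transcripts of Cnr1, Napepld and Abhd6 differ in their first exons, and those of Abhd6 also in their 3′ ends, but share a coding sequence within each gene. Cnr1-201 held 82.8% ± 0.292 of Cnr1 TPM. The coding transcripts Cnr1-201 and Cnr1-202 start at chr4:33924632 and chr4:33926202 and carry an identical coding sequence of 1419 bases, which together made up 90.7% ± 0.744 of Cnr1 TPM (SD, n = 2 each). Both coding transcripts of Napepld share 1 coding sequence of 1188 bases, and Napepld-202 held 81.5% ± 3.73 against 18.5% ± 3.73 for Napepld-201. Abhd6-202 held 75.4% in replicate 1 and 87.0% in replicate 2. Abhd6-201, with the same coding sequence of 1008 bases, held 18.1% and 8.60%, and together these 2 transcripts made up 94.6% ± 1.46 of Abhd6 TPM (SD, n = 2). In the second quantification Abhd6-201 held more, 36.9% in replicate 1 and 35.8% in replicate 2, and Abhd6-202 held 63.1% and 64.2%.

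Mgll was divided over the most transcripts, 10 in the annotation, of which 5 reached 1 TPM in both libraries. All but Mgll-210, which starts further into the gene, use either of 2 first exons: an upstream one that ends at chr6:88724571 and a downstream one that ends at chr6:88725178. In the first quantification the upstream exon held 51.2% of Mgll TPM in replicate 1 and 51.7% in replicate 2, and the downstream exon 47.5% and 46.1%. Mgll-204, from the upstream exon, led with 28.4 TPM in replicate 1 and 31.9 TPM in replicate 2. Mgll-201 and Mgll-207, from the downstream exon, stood at 16.2 and 11.3 TPM in replicate 1 and at 16.9 and 12.9 TPM in replicate 2. The authors' intervals of Mgll-204 and Mgll-201 did not overlap in either library: in replicate 1 they ran from 22.5 to 31.3 TPM and from 10.04 to 21.5 TPM.

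In the second quantification this order was turned round. Mgll-201 led there with 52.5% of Mgll TPM in replicate 1 and 35.4% in replicate 2, and Mgll-204 held 9.36% and 21.4%. The upstream exon held 17.9% in replicate 1 and 35.1% in replicate 2. The libraries differed by 0.507 percentage points in this share in the first quantification and by 17.2 in the second. Mgll was the only one of the 9 genes whose leading transcript differed between the quantifications, against 25% of 11575 genes with several transcripts. Between the libraries, within the first quantification, 0 of the 9 changed leading transcript, against 11.2% of those genes.

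**Figure D4:**
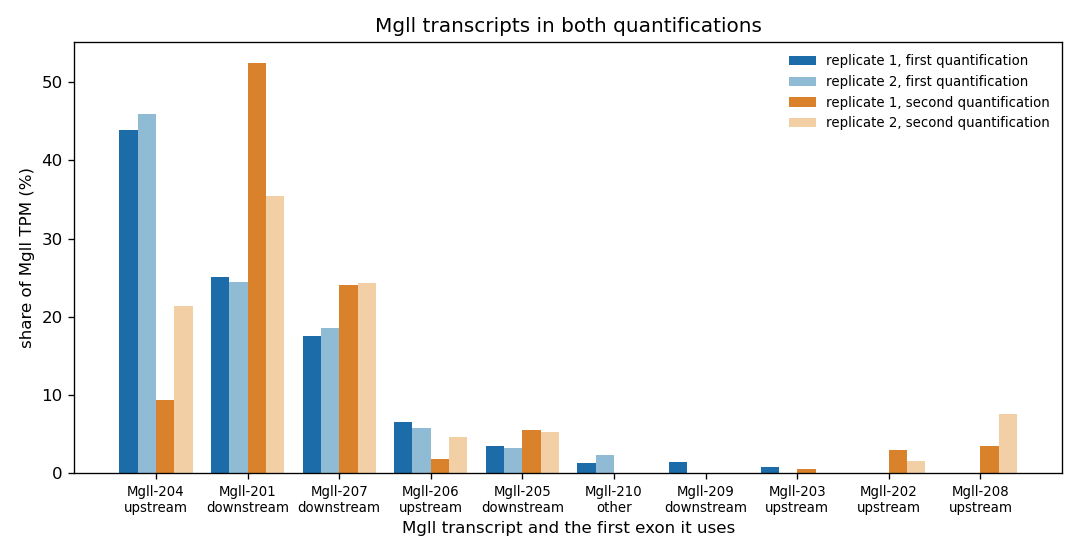
Share of Mgll TPM held by each of its 10 transcripts (bars, percent) in replicate 1 and replicate 2 of the first and the second quantification, with the first exon each transcript uses written under its name. Mgll-204 leads in the first quantification at 43.9% and 45.9%, and Mgll-201 leads in the second at 52.5% and 35.4%.

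Grouped by coding sequence, the Mgll values were closer. Mgll-201 and Mgll-204 carry the same 909 coding bases and together made up 69.7% ± 0.916 of Mgll TPM in the first quantification and 59.3% ± 3.56 in the second (SD, n = 2 each). Mgll-207, which codes for 16 further amino acids at the start of the protein, held 18.0% ± 0.694 in the first and 24.2% ± 0.149 in the second. The authors' intervals of Mgll-207 and Mgll-201 overlapped in both libraries, so the division between these transcripts is uncertain. In replicate 1 they ran from 7.03 to 14.8 TPM and from 10.04 to 21.5 TPM. Mgll-202, with an added coding exon of 84 bases, or 28 codons, at chr6:88813880-88813963, was listed at 0 TPM in both libraries of the first quantification and at 3.15 and 1.96 TPM in the second. The stretches that set these coding sequences apart are shown in capitals (mm10, + strand, 5′ to 3′), beside 12 shared coding bases. The 48 bases of Mgll-207 lie between chr6:88725151 and chr6:88725720 and run over an exon junction. Mgll-201 starts upstream of them and shares the first exon end of Mgll-207, but does not code them. They therefore mark a different annotated coding start and do not tell the RNAs of Mgll-201 and Mgll-207 apart.
Mgll-207: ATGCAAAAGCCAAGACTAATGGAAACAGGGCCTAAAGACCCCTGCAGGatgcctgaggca
Mgll-202: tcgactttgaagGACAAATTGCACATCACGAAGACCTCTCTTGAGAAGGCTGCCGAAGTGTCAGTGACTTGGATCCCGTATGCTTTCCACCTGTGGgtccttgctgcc

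The 250 bases before the first Mgll start, that of Mgll-204, are shown because the start used is what the quantifications disagree on. They lie upstream of both first exons, but the 250 bases before the Mgll-207 start are a separate stretch. RefSeq gives the stretch shown at chr6:88724162-88724411, + strand, on GRCm38.p6, and RefSeq starts coincide with those of Mgll-204 and Mgll-207. Capitals mark each CG, the pair of letters at which DNA is methylated.
Mgll: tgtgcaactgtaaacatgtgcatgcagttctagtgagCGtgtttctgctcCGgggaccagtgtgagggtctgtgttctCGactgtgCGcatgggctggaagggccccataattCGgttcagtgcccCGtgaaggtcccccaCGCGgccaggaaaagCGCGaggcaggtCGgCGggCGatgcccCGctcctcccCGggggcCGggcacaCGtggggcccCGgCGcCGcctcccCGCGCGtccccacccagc
The stretch holds 23 CG pairs, against a median of 6 over 32851 RefSeq windows of the same length, and 68.0% G or C against a median of 52.4%. The window before the Mgll-207 start, not shown, holds 40 CG pairs and 74.8% G or C. It lies at chr6:88724454-88724703 and overlaps the upstream first exon, which ends at chr6:88724571, so part of it is transcribed in Mgll-204. RefSeq windows were found for 7 of the 9 genes (not for Dagla and Abhd12), 11 windows in all. The letters TATAAA were in none of them on either strand, against 12.4% of all windows. The letters GGGCGG were in at least 1 window of Cnr1, Mgll, Faah, Abhd6 and Cnrip1, with 5 matches in that of the most upstream Cnr1 start. They were in 32.7% of all windows. Cnr1, Mgll and Abhd6 also have windows without a match, so a count of genes cannot be set against this share of windows. A match of letters is not a shown binding site.

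Between the libraries no member was called apart. The ratio used counts with 0.5 added over scaled library sizes, and a gene was called at a log2 ratio of replicate 1 over replicate 2 of 1 or more in size, which 0.529% of 15509 genes reached. Napepld had the largest ratio, -0.23, from 955 counts in replicate 1 and 1167 in replicate 2, and 83.1% of genes had a smaller one. The other 8 lay between -0.13 for Abhd6 and Mgll and 0.08 for Cnr1. Of the 9 genes 3 were higher in replicate 1 and 6 in replicate 2, and their median size of 0.08 was that of all genes, 0.08. The spread over all genes, as edgeR's common coefficient of variation, was 4.86%.

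Of 47 other genes of the pathway, in 6 lists, 38 reached 1 TPM in both libraries, beside 58% of all nuclear protein-coding genes. The lists are small, and differences between them were not tested. Among 7 other receptors for these lipids 2 reached it, with a list median of 0.04 TPM, against a median of 3.25 TPM over all nuclear protein-coding genes. The nuclear lipid receptors Ppara, at 1.59 ± 0.0636 TPM, and Pparg, at 1.22 ± 0.170 TPM, were highest, followed by the cation channel Trpv1 at 0.0750 ± 0.0495 TPM (SD, n = 2 each). Gpr119 was counted 0 times in replicate 1 and in replicate 2, a result that leaves room for up to 3 counts in each. Cnr2, the gene of the second cannabinoid receptor CB2 (named after its values were seen), had 4 counts in replicate 1 and 2 in replicate 2, beside 8205 and 8132 for Cnr1.

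Genes of other routes to N-acylethanolamines were detected in 8 of 10 cases, with a median of 5.12 TPM. Gde1, a glycerophosphodiesterase, led at 78.9 ± 1.24 TPM, above Napepld at 12.5 ± 1.44 TPM, followed by the lysophospholipase Abhd4 at 20.2 ± 0.962 TPM and Gdpd1 at 17.5 ± 1.62 TPM (SD, n = 2 each). Other degrading and oxidising enzymes were detected for 4 of 6 genes, with a median of 13.5 TPM. The highest were the serine hydrolases Abhd16a, at 44.4 ± 1.96 TPM, and Abhd2, at 27.7 ± 0.771 TPM, and Naaa, an acid amidase, at 19.5 ± 0.559 TPM (SD, n = 2 each).

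Carriers and signalling partners were all detected. The median of 4 lipid carriers was 36.6 TPM, led by the fatty acid-binding protein Fabp5 at 54.5 ± 0.226 TPM, with Scp2 at 37.0 ± 1.65 TPM and Fabp7 at 35.6 ± 2.87 TPM. In the Gq path, which makes the diacylglycerol that Dagla cuts, 10 of 10 genes were detected, and their median was 37.2 TPM. The glutamate receptor Grm5 led at 101 ± 1.57 TPM, with the G protein Gnaq at 78.5 ± 1.63 TPM and the muscarinic receptor Chrm1 at 70.7 ± 0.983 TPM. Among genes of CB1 coupling and trafficking, 10 of 10 were detected with a median of 66.8 TPM. The Go subunit Gnao1 stood at 263 ± 5.40 TPM, the receptor-sorting protein Gprasp1 at 125 ± 5.48 TPM, and Sgip1, which binds CB1, at 109 ± 0.0212 TPM (SD, n = 2 each).

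**Figure D5:**
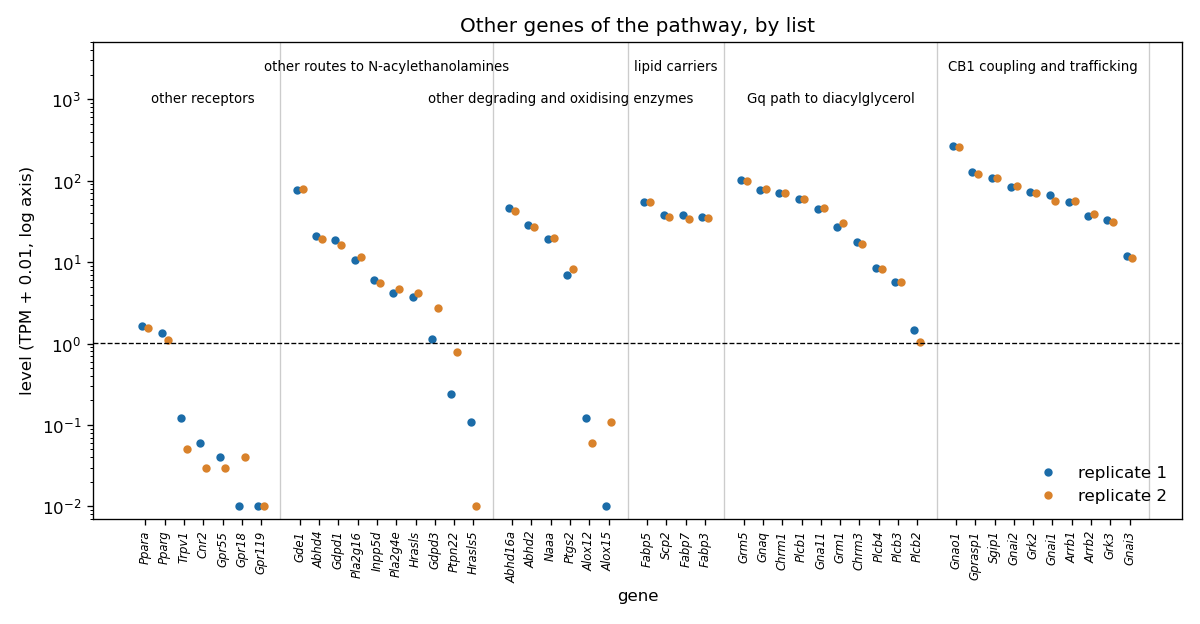
Level of 47 other pathway genes in TPM with 0.01 added (log axis), for replicate 1 and replicate 2, grouped by list, with the dashed line at 1 TPM. Other receptors lie lowest, with 2 of 7 above the line, and all 10 genes of CB1 coupling and trafficking lie above it.

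The libraries held 29490900 and 30691917 expected counts on annotated genes in replicates 1 and 2, and they differed beyond sampling noise, with a chi-square of 3.59 per degree of freedom over 14532 genes, so they were treated as separate. Markers of neurons, glia and hippocampal fields were present: 3 of 3 glutamatergic and 3 of 3 GABAergic markers, 4 of 4 each for astrocytes, oligodendrocytes and microglia, and 5 of 5 for dentate granule cells reached 1 TPM in both libraries. The haemoglobin genes Hbb-bs and Hba-a1 had medians of 112 TPM in replicate 1 and 203 TPM in replicate 2, and the choroid plexus gene Ttr stood at 121 and 65.7 TPM. The other choroid plexus markers were low: Folr1 stood at 1.11 and 0.45 TPM and Kl at 4.51 and 4.09 TPM in replicates 1 and 2. Summed TPM of the dentate granule cell markers was 166 in replicate 1 and 191 in replicate 2, and of the oligodendrocyte markers 756 and 832. Within these lists C1ql2 and Mag were not higher in replicate 2. Glutamatergic markers went the other way, with sums of 1204.7 and 1162.5 TPM. The part of blood, choroid plexus and cell make-up in the levels of the 9 genes was not tested. The second quantification gave higher TPM for most genes: nuclear protein-coding genes held 72.9% and 72.5% of its TPM in replicates 1 and 2, against 40.5% and 40.3% in the first. The median gene was 1.71-fold higher there, and the 9 genes lay between 1.57-fold (Daglb) and 1.88-fold (Abhd6), so absolute levels depend on the table while the order of the 9 changed in 1 place, with Cnrip1 above Dagla.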

How the data were processed

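Per the file headers, the authors deposited for each library a gene and a transcript table laid out like RSEM output, with an expected count, TPM and, as a score, the bounds of a TPM interval whose level is not stated. A further deposited transcript table holds an estimated count and TPM in the layout of kallisto; it was summed per gene and is called the second quantification. The notes with the files name mm10 and annotation M21. The authors' software and strand setting are not given in the sources used here.

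The 9 genes were matched by symbol and joined by identifier. Members and gene lists were chosen with earlier results of these data known. Named genes are the 9 members, the 3 highest of each list and list members with 0 counts in both libraries; named transcripts hold 10% or more of a member's TPM in either library, and the smaller ones named (Dagla-202, Cnr1-202, Mgll-202 and Mgll-210) were chosen after their values were seen. Levels are means ± SD over 2 libraries. Pair ratios were taken within a library and called past 3 SD. Expected counts were rounded for edgeR 4.0.16 (R 4.3.3; TMM, minimum of 10 counts, intercept only). Ratios between libraries used genes at a mean of 1 CPM or more. One library faced another, so no p-values were computed. The calls were tested on simulated counts with shifts larger than the calling threshold, so ratios as small as those of the members were not covered. Spike-in sequences, 0.378% and 0.368% of counts, stayed out of library sizes. Alternatives were DESeq2 1.42.0, spike-in scaling, no filter, a pseudocount of 5, a threshold of 5 TPM, TPM over nuclear protein-coding genes, coding transcripts alone, shares of expected counts, the second quantification and leaving out each library. Python 3.11.15, pandas 2.3.3 and matplotlib 3.10.9 were used. Precision is limited by 2 libraries. The authors' intervals are given per library, so they do not cover the spread between libraries, and which errors they cover is not stated. Promoter windows come from RefSeq (GRCm38.p6).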

Additional observations from a re-analysis of the deposited data

How the results depend on the processing

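With 2 libraries each value left by dropping a replicate lies within the SD by construction, so that step says little here. The number of members detected, called apart between the libraries and led by 1 transcript, and the number of other pathway genes detected, stayed within 1.5 times under every alternative run (38 pathway genes; 39 in the second quantification, 32 at 5 TPM). None of the 7 pair ratios changed direction in its mean. In the second quantification the log2 ratio moved by more than its SD to -1.07 for Abhd6 over Mgll, -2.46 for Napepld over Faah, -0.48 for Cnrip1 over Cnr1 and -0.55 for Dagla over Mgll; Mgll over Faah was -0.05 in replicate 1 and 0.20 in replicate 2 there. With protein-coding transcripts alone it moved to 2.28 for Dagla over Daglb, 0.98 for Mgll over Faah, -1.06 for Abhd6 over Mgll, 0.57 for Abhd12 over Mgll and -1.31 for Napepld over Faah, a step that by construction leaves out the retained-intron transcripts. The coefficient of variation over all genes was 10.9% as the median of DESeq2's dispersions per gene, against edgeR's 4.86% common value; the cause was not tested. Levels in TPM moved for all 9 genes in the second quantification and when TPM was rescaled over nuclear protein-coding genes, and for 7 of 9 with coding transcripts alone. The share of the leading transcript moved by more than its SD for 7 of 9 genes in the second quantification and for 5 of 9 as a share of expected counts, where Faah-201 held 65.2% against 50.8% of TPM and Faah-203 4.05% against 17.0%. No paired analysis was possible because there is 1 group.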
